A study of Mus musculus with 6 samples.

Results

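The genes described here are 34 genes of the unfolded protein response and of protein folding in the endoplasmic reticulum (ER), measured in mouse intestinal crypts, the epithelial pits of the gut that hold its stem cells. They were chosen by name, as textbook sensors, targets and folding enzymes of the response, and all 34 were measured among 19938 genes. Each gene is read from the probe set (the group of array probes that gives 1 value) with exactly 1 gene symbol and the highest mean signal over the 6 arrays. The groups were 3 mice labelled control and 3 mice labelled YAP Tg, with 1 Affymetrix array of total RNA from isolated crypts per mouse. The series names the transgenic mice by YAP-S127A, a form of the transcriptional co-activator YAP that lacks an inhibitory phosphorylation site, and by Villin-rtTA, which makes a doxycycline-inducible gene active in intestinal epithelium. Doxycycline was given for 2 days by the series' description. Whether control mice were also dosed, and what transgenes they had, is not stated, so the change of a gene here is between these labelled groups and cannot be split into drug and transgene.

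Secreted and membrane proteins fold in the ER, and when folding falls behind, sensors in the ER membrane switch on a shared set of genes. Ire1 splices the messenger RNA of the transcription factor Xbp1, Atf6 is cut to release a transcription factor of its own, and Perk phosphorylates the initiation factor eIF2, which favours translation of Atf4. Goblet and Paneth cells of the crypt export large amounts of mucin and antimicrobial protein and rely on this machinery. The arrays read gene-level RNA, so the splicing of Xbp1, the cutting of Atf6 and the phosphorylation of Perk were not measured.

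Signals are log2 values, and 1 unit is a doubling. Array medians over the tested genes ran from 6.74 to 6.79. Upper quartiles were 8.60 to 8.69 in controls and 8.45, 8.66 and 8.49 in YAP Tg 1, 2 and 3. The YAP target Ccn1, a secreted matrix protein, rose from 6.18 ± 0.03 to 10.67 ± 0.11 (SD, n = 3 mice per group), which checks the labels, whereas the probe set of Yap1 itself stood at 9.41 ± 0.09 in controls and 9.17 ± 0.16 in YAP Tg and gives no such check. YAP Tg 2 lay nearer to the controls than the other transgenic mice did. Its median absolute distance from the control mean over all genes was 0.115 on the log2 scale, against 0.234 for YAP Tg 1 and 0.232 for YAP Tg 3. Probe sets without annotation, taken as array controls, had a median signal of 4.97 to 4.99 in control mice and of 5.33, 5.15 and 5.03 in YAP Tg 1, 2 and 3, and 0 of the 34 genes had a mean below it.

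Few of these genes changed, and those that did belonged to different arms. At an adjusted p below 0.05, 4 of the 34 fell in YAP Tg crypts (Ern2, Herpud1, Xbp1 and Ssr4) and 1 rose (Chac1), while 29 did not pass (limma, Benjamini-Hochberg adjustment over all genes). The 5 called genes are 14.7% of the 34, and 14.2% of all genes tested were called. The 4 that fell are 11.8%, against 6.70% of all genes, and the 1 that rose is 2.94%, against 7.50% of all genes. The share called was thus close to that of all genes tested, but the 34 genes are brighter (mean level in control 1 of 9.79, against 7.06). In a fit of the 9969 genes brighter than the median gene, 27.8% were called (13.5% higher and 14.3% lower). That fit held 32 of the 34 genes and called the same 5. All 3 YAP Tg values lay below all 3 control values for 7 of the 34 genes (20.6%, against 17.0% of all genes) and above them for 2 (5.88%, against 16.5%). The median change was -0.13 over the 34 genes and 0.03 over all genes. The number of calls depended on single mice and ran from 2 to 16 as each mouse was left out. It was 3 without control 1, 2 without control 2 and 2 without control 3. It was 5 without YAP Tg 1, 16 without YAP Tg 2 and 3 without YAP Tg 3. Of all genes these fits called 5.23%, 5.81%, 5.67%, 10.2%, 33.6% and 9.42%, in the same order. Of the 5, Ern2 and Herpud1 passed in all 6 of these fits.

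**Figure D1:**
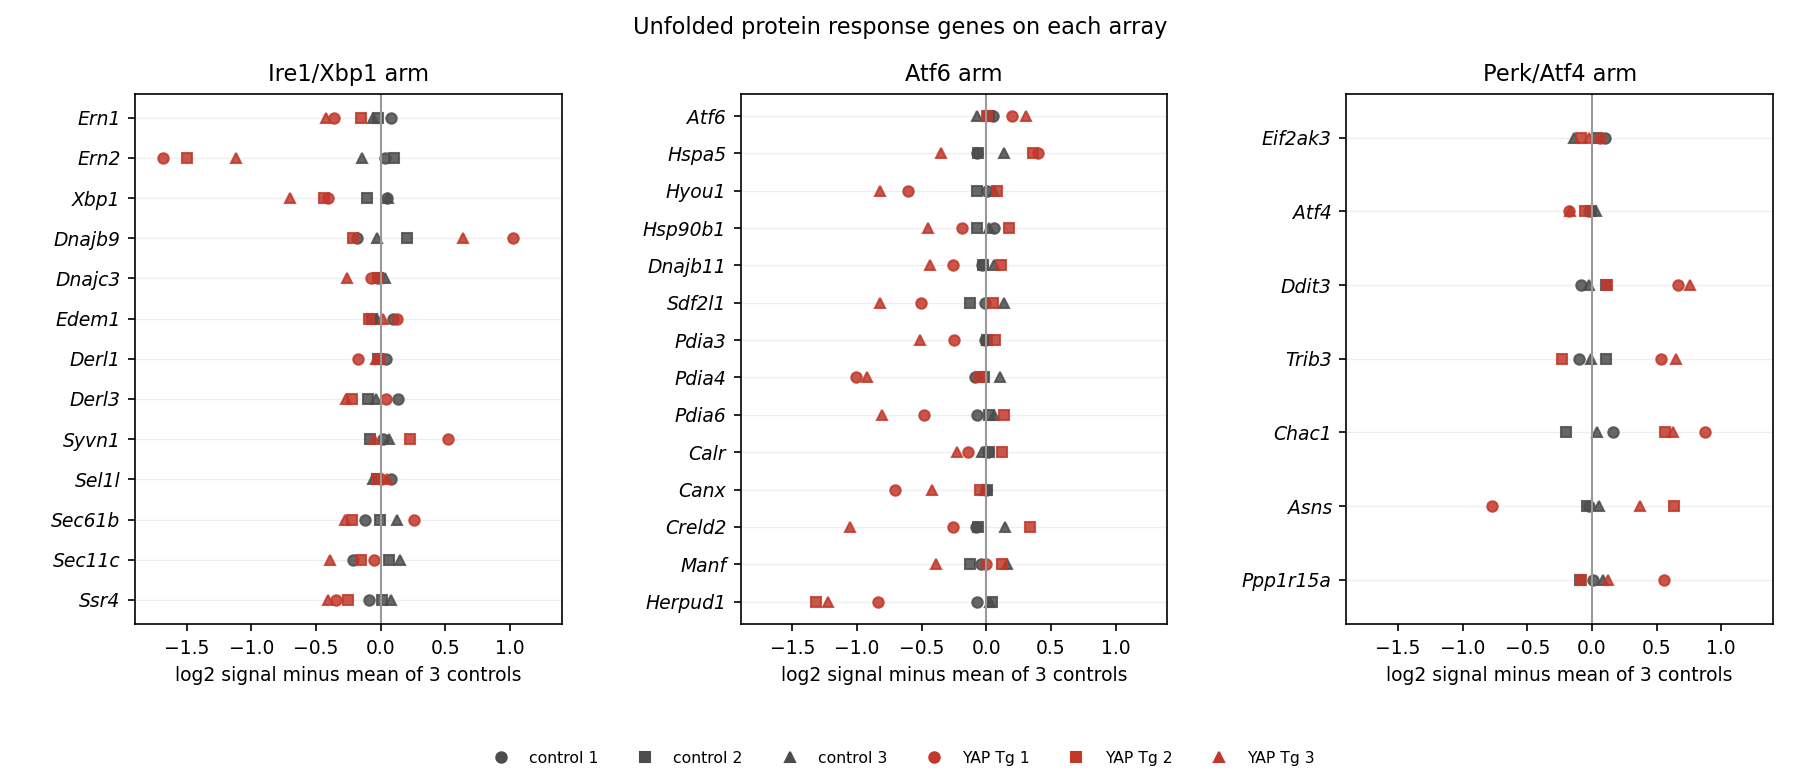
Log2 signal of each of the 34 genes on each array minus the mean of the 3 controls, by arm (grey, control; red, YAP Tg; circle, square and triangle, replicates 1, 2 and 3). Ern2 and Herpud1 lie far to the left in all 3 YAP Tg mice, and in most Atf6 arm genes YAP Tg 1 and YAP Tg 3 lie to the left of YAP Tg 2.

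In the Ire1/Xbp1 arm 3 of 13 genes fell (23.1%, against 6.70% of all genes) and 0 rose (against 7.50%), with a median change of -0.12, and the clearest change was in Ern2, which encodes Ire1 beta, the form of the sensor found in mucus-secreting epithelium. Ern2 read 8.72, 8.79 and 8.54 in control 1, 2 and 3 and 7.01, 7.19 and 7.57 in YAP Tg 1, 2 and 3. All 3 transgenic mice lay far below the lowest control. The change was -1.43 ± 0.16 (SE, 95% interval -1.81 to -1.05, adjusted p = 0.00336), or 37.0% of the control level. Leaving out any 1 mouse kept it between -1.59 and -1.31. In RNA of a whole crypt preparation, fewer cells of a type and less RNA per cell cannot be told apart.

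Ern1 encodes the widely expressed Ire1 alpha. It read 8.44, 8.34 and 8.31 in controls and 8.00, 8.21 and 7.94 in YAP Tg mice, so the groups did not overlap. Its change of -0.31 ± 0.09 missed the threshold (adjusted p = 0.0802).

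Xbp1, the transcription factor that Ire1 activates, read 11.84, 11.68 and 11.85 in controls and 11.39, 11.35 and 11.09 in YAP Tg mice. Every transgenic value was below every control value. It fell by 0.51 ± 0.10 (SE, adjusted p = 0.0250), to 70.1% of the control level. The call was lost when control 1, control 2 or control 3 was left out, with adjusted p of 0.112, 0.0667 and 0.108 in turn.

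Of the 10 targets and partners listed beside the sensors and Xbp1, 1 passed, while 14.2% of all genes were called. Ssr4, a subunit of the complex that assists entry of new proteins into the ER, was that gene, and it fell. It read 10.97, 11.07 and 11.13 in controls and 10.71, 10.80 and 10.65 in YAP Tg mice. These groups did not overlap, and the change of -0.34 ± 0.08 (SE, adjusted p = 0.0401) left 79.2% of the control level. The call of Ssr4 was kept only without YAP Tg 2, and the adjusted p was 0.0882 without control 1, 0.141 without control 2, 0.137 without control 3, 0.0943 without YAP Tg 1 and 0.101 without YAP Tg 3.

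Dnajb9, a co-chaperone of the ER whose RNA is a standard readout of spliced Xbp1, behaved differently. It read 10.14, 10.53 and 10.30 in controls and 11.34, 10.11 and 10.96 in YAP Tg mice. YAP Tg 1 and YAP Tg 3 were above every control and YAP Tg 2 was below every control. The change was 0.48 ± 0.31 (SE, adjusted p = 0.349), which does not exceed the spread. Without YAP Tg 2 the change was 0.83 (adjusted p = 0.0152), in a fit that called 14.1% of all genes higher. As YAP Tg 2 stood apart in these same values, the second p is no independent support.

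The 5 genes of ER-associated degradation in the Ire1/Xbp1 arm did not pass the test. Syvn1, the ubiquitin ligase also called Hrd1, read 8.88, 8.77 and 8.92 in controls and 9.38, 9.08 and 8.81 in YAP Tg mice (change 0.23, adjusted p = 0.342), with YAP Tg 1 and YAP Tg 2 above the controls. Its partner Sel1l differed by 0.01, and Edem1, which recognises trimmed glycans, by 0.02. Derl1 and Derl3, membrane proteins of the export channel, differed by -0.07 and -0.15. Dnajc3, an ER co-chaperone that also inhibits Perk, differed by -0.12 (adjusted p = 0.405). Sec61b, a subunit of the translocation channel, differed by -0.08 and Sec11c, the catalytic subunit of signal peptidase, by -0.20, and neither passed.

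**Figure D2:**
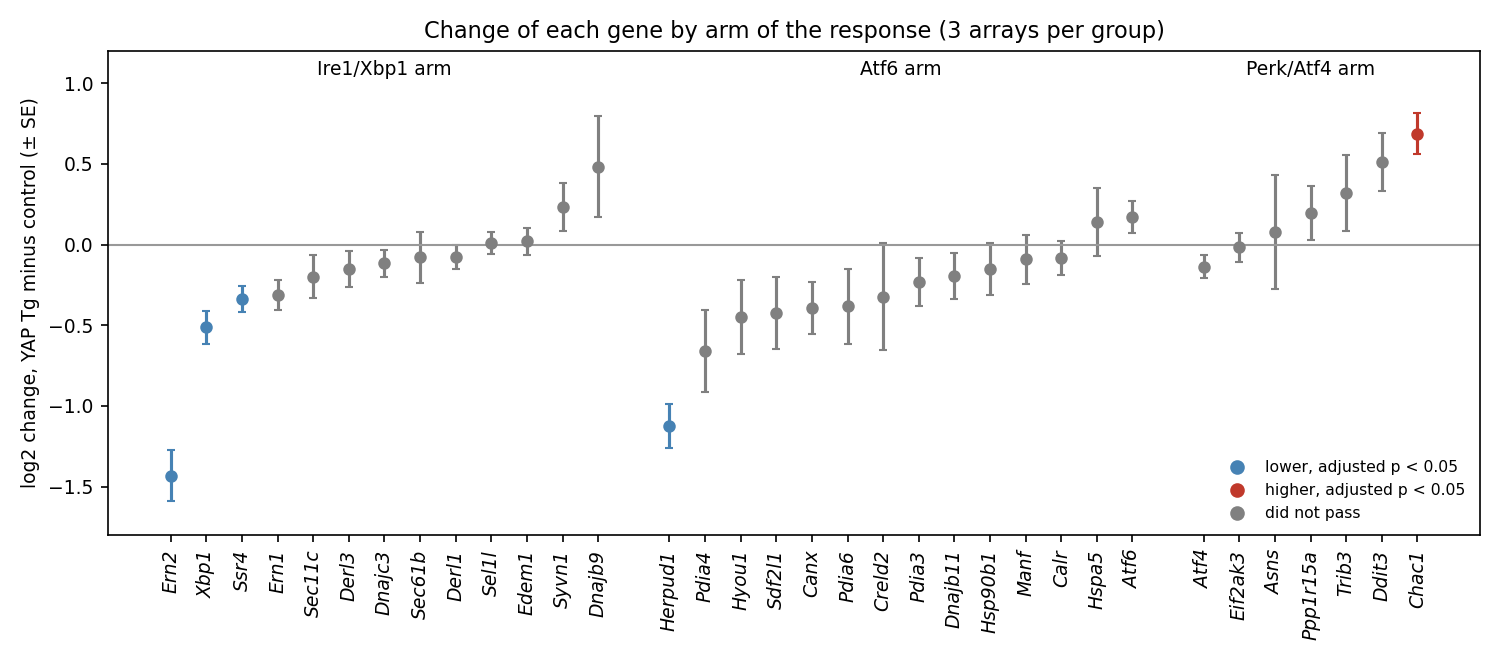
Log2 change (YAP Tg minus control) of each of the 34 genes by arm, with bars of 1 SE from the limma fit (3 arrays per group; blue, lower and red, higher at an adjusted p below 0.05; grey, did not pass). Ern2 (-1.43) and Herpud1 (-1.12) lie farthest below 0 and Chac1 (0.69) farthest above it.

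Genes of the Atf6 and Xbp1 arms are known to carry short DNA elements near their starts, and the matches found here are shown so that their letters can be compared between members. RefSeq promoter windows of the mouse assembly GRCm38.p6, from 250 bases before to 50 after each start, were at hand for 28 of the 34 genes; Derl1, Sec11c, Manf, Ern2, Atf6 and Hyou1 had none. The ER stress element was searched as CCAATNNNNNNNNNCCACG on both strands. It was in the windows of 9 of the 28 genes and in 0.119% of all 32851 windows. The matches are given 5′ to 3′ in the direction of the element, with its fixed letters in capitals and the 9 free letters in lower case. Hsp90b1 has a pair of matches.
Hspa5: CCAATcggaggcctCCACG
Hsp90b1: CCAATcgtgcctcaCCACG
Hsp90b1: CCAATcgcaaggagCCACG
Calr: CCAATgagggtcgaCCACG
Canx: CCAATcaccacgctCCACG
Pdia6: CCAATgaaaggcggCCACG
Creld2: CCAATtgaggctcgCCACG
Dnajc3: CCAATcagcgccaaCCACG
Derl3: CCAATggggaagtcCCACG
Syvn1: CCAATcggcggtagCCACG
The first base of these matches lay 44 (Syvn1) to 212 (Hsp90b1) bases before the start. None of the 9 genes passed the limma test (0 had an unadjusted p below 0.05), while 14.2% of all genes were called. Their changes ran from -0.39 to 0.23 with a median of -0.15. Signals were below the control mean for 6 of 9 genes in YAP Tg 1, 3 of 9 in YAP Tg 2 and 9 of 9 in YAP Tg 3. Above the control mean were 10742, 9608 and 11668 of all 19938 genes in YAP Tg 1, 2 and 3. Of the 14 Atf6 arm genes, with or without the element, 2, 11 and 1 were above it. A match of letters is a description, not a bound site.

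The related ER stress element II, ATTGGNCCACG, was found on either strand in Herpud1 and Dnajb11 and in 0.0365% of windows, and the core of the UPR element, TGACGTG, in Hspa5 alone among these genes and in 2.01% of windows. The C/EBP-ATF element, TGATGNAA, to which Atf4 dimers bind, was in Asns, Chac1, Herpud1 and Trib3 and in 3.97% of windows. No match of one element overlapped a match of another. The 250 bases before the start are shown for Syvn1 (chr19:6046326-6046575, plus strand) and Canx (chr11:50325674-50325923, minus strand), which had the smallest p among ER stress element genes of their arms. They are also shown for Herpud1 (chr8:94386179-94386428, plus strand) and Chac1 (chr2:119350992-119351241, plus strand), called genes with a C/EBP-ATF element. Capitals mark the elements; in Herpud1 and Chac1 the C/EBP-ATF element is on the opposite strand and so reads TTgCATCA, and Herpud1 carries ATTGGgCCACG nearer its start.
Syvn1: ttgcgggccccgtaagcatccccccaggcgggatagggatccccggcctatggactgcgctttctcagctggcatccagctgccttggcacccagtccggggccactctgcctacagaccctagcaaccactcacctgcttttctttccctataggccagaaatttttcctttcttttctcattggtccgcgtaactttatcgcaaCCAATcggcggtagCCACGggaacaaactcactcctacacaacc
Canx: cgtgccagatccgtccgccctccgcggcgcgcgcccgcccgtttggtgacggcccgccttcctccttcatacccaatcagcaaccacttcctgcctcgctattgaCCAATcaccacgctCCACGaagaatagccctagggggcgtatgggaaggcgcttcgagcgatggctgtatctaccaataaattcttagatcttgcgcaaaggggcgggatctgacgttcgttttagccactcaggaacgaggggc
Herpud1: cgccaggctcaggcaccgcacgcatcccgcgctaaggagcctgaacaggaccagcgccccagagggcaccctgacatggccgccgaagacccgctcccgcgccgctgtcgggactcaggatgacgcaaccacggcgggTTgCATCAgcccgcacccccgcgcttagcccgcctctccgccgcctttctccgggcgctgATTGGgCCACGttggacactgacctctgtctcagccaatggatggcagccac
Chac1: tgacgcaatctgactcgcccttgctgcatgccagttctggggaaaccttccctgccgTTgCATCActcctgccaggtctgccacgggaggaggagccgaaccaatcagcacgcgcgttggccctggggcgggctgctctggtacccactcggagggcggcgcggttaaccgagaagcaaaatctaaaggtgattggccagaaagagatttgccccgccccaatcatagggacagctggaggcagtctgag
Herpud1 and Chac1 carry the same C/EBP-ATF letters and were called in opposite directions.

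In the Atf6 arm 1 of 14 genes, Herpud1, fell (7.14%, near the 6.70% of all genes) and 0 rose (against 7.50%). Herpud1 encodes an ER membrane protein that organises the Hrd1 degradation complex. It read 10.88, 11.00 and 10.98 in controls and 10.12, 9.64 and 9.73 in YAP Tg 1, 2 and 3. Every transgenic value was below every control value, and YAP Tg 2 was the lowest. The change was -1.12 ± 0.14 (SE, 95% interval -1.45 to -0.80, adjusted p = 0.00456), or 45.9% of the control level, and it stayed between -1.27 and -1.03 without any 1 mouse.

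Hspa5, the master chaperone BiP and the usual readout of the response, did not pass. It read 12.10, 12.10 and 12.30 in controls and 12.57, 12.53 and 11.81 in YAP Tg mice. YAP Tg 1 and YAP Tg 2 were above every control and YAP Tg 3 below every control. The change was 0.14 ± 0.21 (SE, 95% interval -0.37 to 0.65, adjusted p = 0.696), so a change of up to 0.65 upward or 0.37 downward lies within the interval. Atf6 itself, the cleaved sensor, read 9.07, 9.04 and 8.95 in controls and 9.22, 9.02 and 9.33 in YAP Tg mice (change 0.17, adjusted p = 0.292).

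The other chaperones and disulfide enzymes of the arm separated the transgenic mice from each other. Pdia4, a protein disulfide isomerase, read 11.38, 11.45 and 11.57 in controls and 10.46, 11.42 and 10.54 in YAP Tg mice. YAP Tg 1 and YAP Tg 3 were well below the lowest control and YAP Tg 2 was inside the control range. The change was -0.66 ± 0.26 (SE, adjusted p = 0.148). Without YAP Tg 2, the mouse that stood apart, it was -0.96 (adjusted p = 0.00170), in a fit that called 19.5% of all genes lower. As YAP Tg 2 stood apart in these same values, the second p is no independent support. A dimmer probe set of Pdia4 differed by -0.01.

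Hyou1, a large chaperone of the Hsp70 family, read 9.88, 9.80 and 9.94 in controls and 9.27, 9.96 and 9.05 in YAP Tg mice, again with YAP Tg 1 and YAP Tg 3 below the controls (change -0.45, adjusted p = 0.240). Creld2, a secreted ER stress protein, spread most widely, from 10.06 to 10.28 in controls and at 9.88, 10.47 and 9.09 in YAP Tg 1, 2 and 3 (change -0.32 ± 0.33, SE, adjusted p = 0.553). Canx, the lectin chaperone calnexin, was tight in controls at 12.63, 12.63 and 12.62 and read 11.92, 12.57 and 12.21 in YAP Tg mice. Its groups did not overlap, but the change of -0.39 ± 0.16 (SE) gave an adjusted p of 0.169.

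The arrangement of Hyou1 and Creld2, with YAP Tg 1 and YAP Tg 3 below all controls and YAP Tg 2 not, was shared by 6 further genes, none of which passed (adjusted p from 0.252 to 0.638). Sdf2l1, a partner of BiP, differed by -0.43, Pdia6 by -0.38, Pdia3 (the isomerase that works with the lectin chaperones) by -0.23 and Dnajb11, a BiP co-chaperone, by -0.19. Hsp90b1, the chaperone Grp94, differed by -0.15, and Calr, the lectin chaperone calreticulin, by -0.08. Manf, a secreted ER stress factor, differed by -0.09 without this arrangement.

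Over the arm, 12 of 14 changes were negative with a median of -0.28, against 0.03 over all genes. By mouse, the median over the arm relative to the control mean was -0.26 in YAP Tg 1, 0.09 in YAP Tg 2 and -0.48 in YAP Tg 3. YAP Tg 1 and YAP Tg 3 were both below all controls, with YAP Tg 2 not below them, in 9 of 14 genes (64.3%, against 10.3% of all genes). The upper quartile of all genes had the same arrangement, at 8.45, 8.66 and 8.49 in YAP Tg 1, 2 and 3 against 8.60 to 8.69 in controls. The part of this array-wide difference among bright genes in the result for the arm was not tested. Without YAP Tg 2, 8 of 14 passed as lower, while 19.5% of all genes were then called lower. That mouse was singled out by the same values, so this count is no independent support. Whether YAP Tg 2 differed from its group through biology or through its array or preparation cannot be told apart with 1 array per mouse.

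In the Perk/Atf4 arm 1 of 7 genes rose (14.3%, against 7.50% of all genes) and 0 fell (against 6.70%), so that the share called in either direction was near the 14.2% of all genes. The median change of the arm was 0.20, and the gene that rose was Chac1, an enzyme that breaks down glutathione and a target of Atf4. Chac1 read 7.45, 7.08 and 7.32 in controls and 8.16, 7.85 and 7.91 in YAP Tg mice, without overlap. It rose by 0.69 ± 0.13 (SE, 95% interval 0.37 to 1.00, adjusted p = 0.0197), 1.61-fold. The call was lost without control 2, control 3 or YAP Tg 3, with adjusted p of 0.0704, 0.0808 and 0.0597.

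Ddit3, the transcription factor Chop, read 6.94, 7.13 and 7.00 in controls and 7.69, 7.14 and 7.78 in YAP Tg mice. The groups did not overlap, although YAP Tg 2 exceeded control 2 by little. The change of 0.51 ± 0.18 (SE, 95% interval 0.08 to 0.94) had an adjusted p of 0.116. Without YAP Tg 2, the mouse nearest the controls, the change was 0.71 (adjusted p = 0.00351), in a fit that called 14.1% of all genes higher. This mouse was singled out by the same values, so the second p is no independent support. Trib3, a pseudokinase target of Chop, had the same order, at 7.67, 6.90 and 7.79 in YAP Tg 1, 2 and 3 against 7.03 to 7.25 in controls (change 0.32, adjusted p = 0.411).

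Asns, the asparagine synthetase and a target of Atf4, went the other way in 1 mouse. It read 11.22, 11.21 and 11.30 in controls and 10.47, 11.88 and 11.61 in YAP Tg mice, so YAP Tg 1 was below every control and YAP Tg 2 and YAP Tg 3 were above. The change was 0.08 ± 0.35 (SE, 95% interval -0.78 to 0.93, adjusted p = 0.905). Without YAP Tg 1 it was 0.50 (adjusted p = 0.0435), in a fit that called 5.72% of all genes higher. As YAP Tg 1 stood apart in these same values, the second p is no independent support.

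The remaining members of the arm did not pass the test at the RNA level. Atf4 read 8.39, 8.41 and 8.45 in controls and 8.24, 8.36 and 8.25 in YAP Tg mice, all below the controls, with a change of -0.14 (adjusted p = 0.240). Eif2ak3, which encodes Perk, differed by -0.02 (adjusted p = 0.920). Ppp1r15a, the phosphatase subunit Gadd34 that reverses the block on translation, read 6.92, 6.28 and 6.50 in YAP Tg mice against 6.28 to 6.46 in controls (change 0.20, adjusted p = 0.470).

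**Figure D3:**
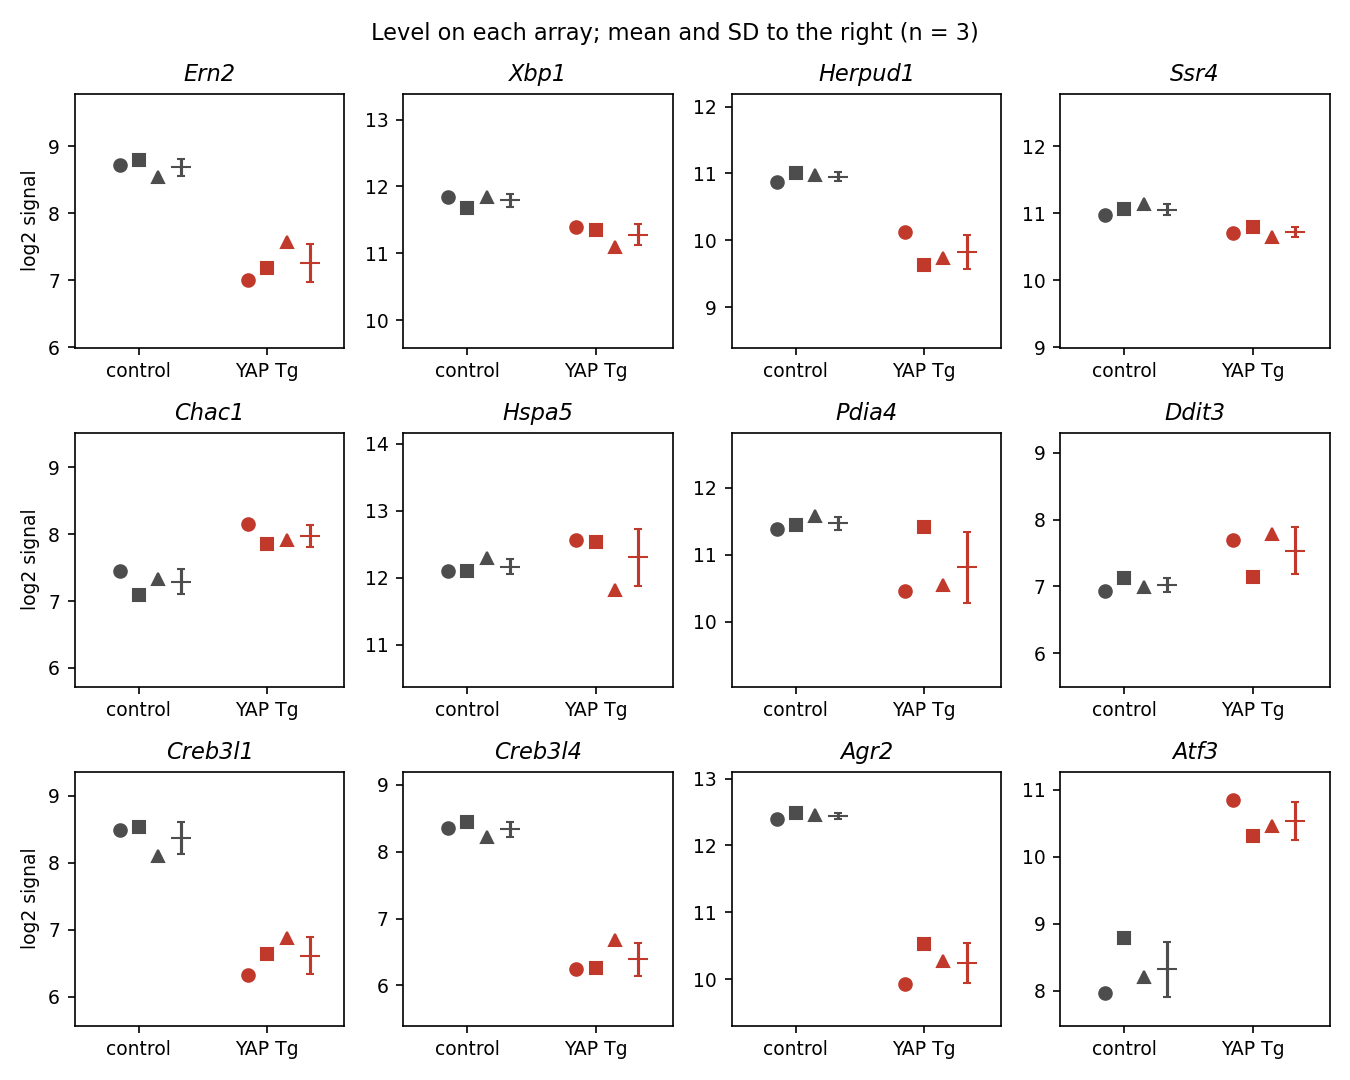
Log2 signal on each array for 8 of the 34 genes and, in the last row, 4 genes of related pathways, with mean and SD (n = 3 mice) beside the points; circle, square and triangle are replicates 1, 2 and 3. All panels span the same height, and Pdia4 shows YAP Tg 2 at 11.42, inside the control range.

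Other genes of the pathway were read from 8 lists of 160 genes, of which 153 were measured. Over these, 10 rose (6.54%, against 7.50% of all genes) and 19 fell (12.4%, against 6.70%), and the median change was -0.19. The ER-anchored relatives of Atf6 moved in both directions, with 2 higher and 3 lower of 11 measured. Creb3l1, a factor of this family also listed here as a goblet cell marker, read 8.49, 8.53 and 8.10 in controls and 6.32, 6.64 and 6.87 in YAP Tg mice, a change of -1.76 ± 0.18 (SE, adjusted p = 0.00262). Creb3l4 changed by -1.94 ± 0.14 (SE, adjusted p = 0.00101), while Creb3 and Creb3l2 rose by 0.95 and 0.99 (adjusted p = 0.0178 and 0.0180). The calls of Creb3l1 and Creb3l4 passed without any 1 mouse, whereas Creb3 was lost without any 1 control (adjusted p up to 0.0867) and Creb3l2 was lost in every fit that left out a mouse other than YAP Tg 2 (up to 0.0825).

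Of 16 oxidative folding genes 7 fell and 0 rose, the highest share called of the 8 lists after the Atf6 relatives (43.8% and 45.5%, against 14.2% of all genes). Agr2, a disulfide isomerase required for mucin folding, read 12.40, 12.48 and 12.45 in controls and 9.92, 10.52 and 10.27 in YAP Tg mice. Every transgenic mouse was far below the controls, with a change of -2.21 ± 0.15 (SE, adjusted p = 0.000988). Txndc5, an isomerase also listed as a plasma cell marker, and Ero1b, an oxidase that recharges isomerases, changed by -1.46 and -0.99 (adjusted p = 0.00537 and 0.00546). Agr3, a relative of Agr2, changed by -1.48, and its YAP Tg mean of 4.38 was under the level of the array controls. All 4 passed without any 1 mouse.

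Of 22 integrated stress response genes 3 rose and 3 fell (13.6% each, against 7.50% higher and 6.70% lower of all genes). Atf3, a stress-induced factor downstream of Atf4, read 7.97, 8.78 and 8.20 in controls and 10.85, 10.30 and 10.45 in YAP Tg mice, a change of 2.22 ± 0.24 (SE, adjusted p = 0.00319). Psat1, of serine synthesis, rose by 1.48 (adjusted p = 0.0185), and Slc3a2, the amino acid transporter chain, and Pck2, a mitochondrial enzyme, each fell by 0.51. The Atf3 call passed without any 1 mouse, while those of Slc3a2 and Pck2 were lost without any 1 control (adjusted p up to 0.0658 and 0.0982) and that of Psat1 also without YAP Tg 3 (up to 0.0867). Psat1 was highest in YAP Tg 2, as Asns was.

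The remaining lists differed in the share called, against 14.2% of all genes. Of 17 other degradation genes 4 were called (23.5%): 2 fell (Rnf5, a ubiquitin ligase, by 0.86; Edem2 by 0.46) and 2 rose (Ube2j1 by 0.36; Herpud2, a relative of Herpud1, by 0.53). Of 15 other chaperones none passed the limma test (1 had an unadjusted p below 0.05), and the smallest p belonged to Sil1, an exchange factor of BiP, at -0.64 (adjusted p = 0.0631), and Fkbp2 at -0.21 (adjusted p = 0.221). Of 29 translocation genes 10.3% were called: 1 rose (Tusc3, by 0.64) and 2 fell (Krtcap2 by 0.72 and Magt1 by 0.62, all subunits of oligosaccharyltransferase). Of the 29 changes, 26 were negative and 3 positive, with a median of -0.29. Every YAP Tg value was below every control in 14 genes (48.3%, against 17.0% of all genes) and above in 2 (6.9%, against 16.5%). Of 32 ER to Golgi transport genes 9.38% were called: 2 fell (the cargo receptor Lman1 by 0.84 and Bet1 by 0.95) and 1 rose (Sar1a, by 0.42). Their changes were negative in 24 and positive in 8, with a median of -0.09. Here 10 genes (31.2%) lay wholly below the controls and 4 (12.5%) wholly above them. Of 11 tRNA synthetases, many of them Atf4 targets, 1 rose (Gars, by 1.02; 9.09%). Of the 29 called genes in the 8 lists, 9 passed without any 1 mouse: Creb3l1, Creb3l4, Atf3, Gars, Ero1b, Txndc5, Agr2, Agr3 and Rnf5. In this paragraph Edem2 and Tusc3 were lost without control 1 or control 3 (adjusted p up to 0.0630 and 0.0620), Ube2j1 without any 1 control (up to 0.0900), and Herpud2, Krtcap2, Magt1, Lman1, Bet1 and Sar1a without at least 4 of the 6 mice (up to 0.171).

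**Figure D4:**
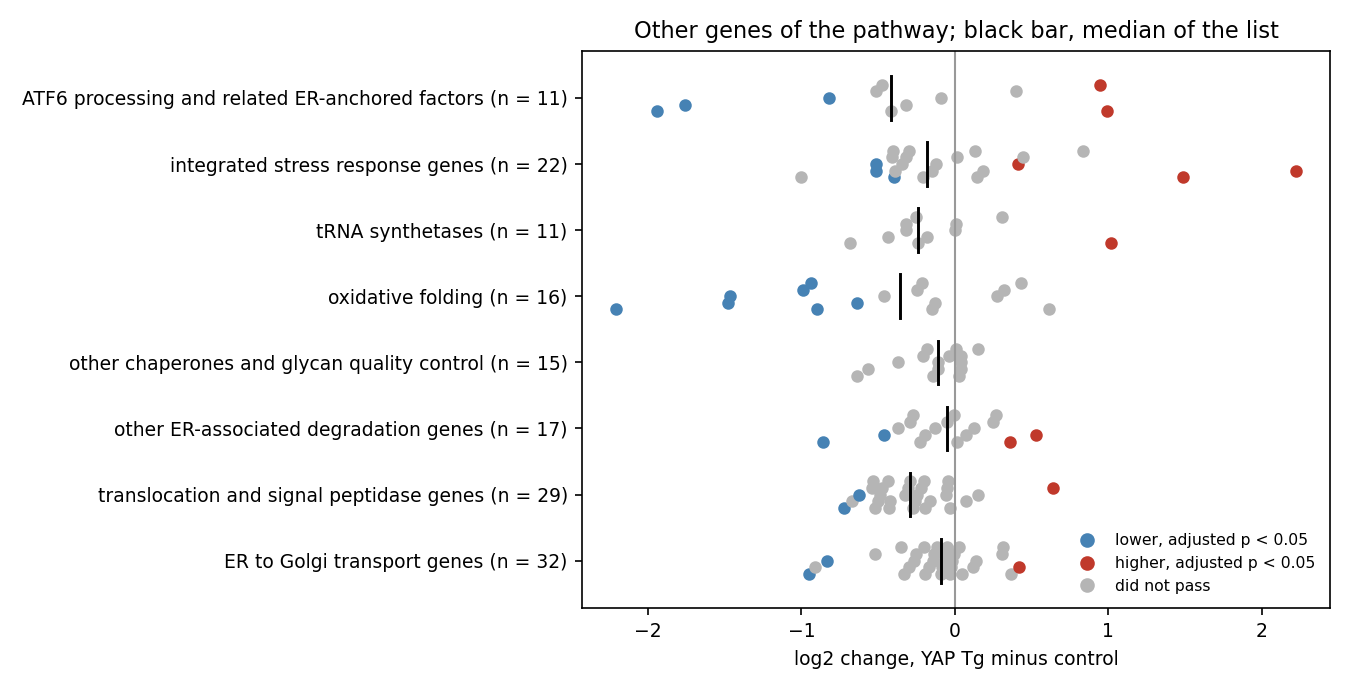
Log2 change (YAP Tg minus control) of every measured gene of the 8 other pathway lists (blue, lower and red, higher at an adjusted p below 0.05; grey, did not pass); black bars are list medians and the vertical offset within a list has no meaning. The Agr2 point (-2.21) lies at the low end of oxidative folding and Atf3 (2.22) at the high end of the integrated stress response.

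Among markers of secretory cells, those of goblet cells were called most often. Of 14 goblet cell markers 9 fell (64.3%, against 6.70% of all genes) and 0 rose, with a median change of -0.99 and mean levels of 9.85 to 10.21 in controls and 8.74, 8.56 and 9.45 in YAP Tg 1, 2 and 3. Guca2a, which encodes guanylin, changed by -2.63, Galnt12, a mucin-type glycosyltransferase, by -1.43, and Ramp1 by -0.77. Of 3 abundant goblet products chosen after their values were seen, Spink4 changed by -0.93 (adjusted p = 0.0238), the mucin Muc2 by -0.84 (adjusted p = 0.130) and Tff3, the trefoil peptide, by -0.09 (adjusted p = 0.717), so 1 of the 3 passed. Clca1 and Zg16, with higher control means (13.00 and 13.03) than Spink4 (12.67) and Muc2 (10.60), changed by -0.21 and -0.16 and did not pass. Of 12 Paneth cell markers 4 fell (Pla2g2a by 1.30, Habp2 by 1.08, Clps by 0.72 and Ang4 by 0.65; 33.3%) and 0 rose, with a median of -0.55 and mean levels of 10.36 to 10.71 in controls and 9.81, 9.98 and 10.12 in YAP Tg 1, 2 and 3. Guca2a, Galnt12, Ramp1 and Pla2g2a passed without any 1 mouse. Spink4 was lost without any 1 control or YAP Tg 1 (adjusted p up to 0.106), Habp2 without control 1, control 3 or YAP Tg 3 (up to 0.0703), Clps without any 1 control or YAP Tg 1 (up to 0.106), and Ang4 without every mouse but YAP Tg 2 (up to 0.0757).

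By list median, the order of the transgenic mice differed between goblet cell markers and the Atf6 arm. The medians of goblet and Paneth cell markers also differed in order. The goblet list had its median difference from the control mean lowest in YAP Tg 2, at -1.35, with -0.95 and -0.75 in YAP Tg 1 and 3, whereas the Atf6 arm median was above the control mean in YAP Tg 2. For the Paneth list the medians were -0.69, -0.62 and -0.38 in YAP Tg 1, 2 and 3, lowest in YAP Tg 1. Single goblet markers did not share 1 order. Of those called, Galnt12, Atoh1, Creb3l1, Capn9 and Tpsg1 were lowest in YAP Tg 1, and Spink4, Spdef, Ramp1 and Guca2a in YAP Tg 2. A difference in order between goblet and Paneth cell markers thus rests on the medians alone. Ern2 differed from the control mean by -1.68, -1.50 and -1.12 in YAP Tg 1, 2 and 3. The part of secretory cells in the results for Ern2, Xbp1, Herpud1, Creb3l1 and Agr2 was not tested.

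The other cell marker lists differed in the share called, against 7.50% higher and 6.70% lower of all genes. For T cells and intraepithelial lymphocytes, 9 of 11 markers rose (81.8%) and 0 fell. Mean levels were 9.13 to 9.32 in controls and 10.43 to 10.83 in YAP Tg. Cd8a, Cd3d, Cd7 and Cd3g rose by 1.46, 1.59, 1.35 and 1.72. Of 12 myeloid markers 5 rose (41.7%) and 1 fell (8.33%). The 4 with the smallest p, Csf1r, Tyrobp, C1qb and Fcgr3, rose by 0.85, 1.71, 1.48 and 1.25. Over the 12, changes ran from -0.43 to 1.71 with a median of 0.41, and 3 were negative. Of 10 plasma cell markers, cells with a large ER, 1 rose (Prdm1, by 1.19) and 1 fell (Txndc5), 10% in each direction. Mean levels were 6.70 to 6.76 in controls and 6.78 to 7.03 in YAP Tg. Of 21 enteroendocrine markers 3 fell (14.3%: Neurog3 at -1.88, Rfx6 at -0.83 and Chgb at -0.37) and 1 rose (4.76%: Cck, by 0.45). Of 12 tuft cell markers none passed the limma test (2 had an unadjusted p below 0.05, Gnat3 with a difference of 0.28 and Plcb2 with -0.25), and the median change was 0.08. Of 12 stromal markers 1 rose (8.33%: Vim, by 0.95). Of 14 enterocyte markers 2 rose (14.3%) and 3 fell (21.4%), with Fabp2 at -1.49, Fabp1 at -1.74 and Mep1a at -2.46 among the lower, and Krt20 at 1.09 among the higher. Of the called genes named in this paragraph Txndc5, Neurog3, Fabp2, Krt20, Csf1r, Tyrobp and the 4 T cell genes passed without any 1 mouse, and each of the others was lost without at least 1 control (adjusted p up to 0.180). The part of these cells in the changes of Chac1, Ddit3 and Atf3 was not tested.

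**Figure D5:**
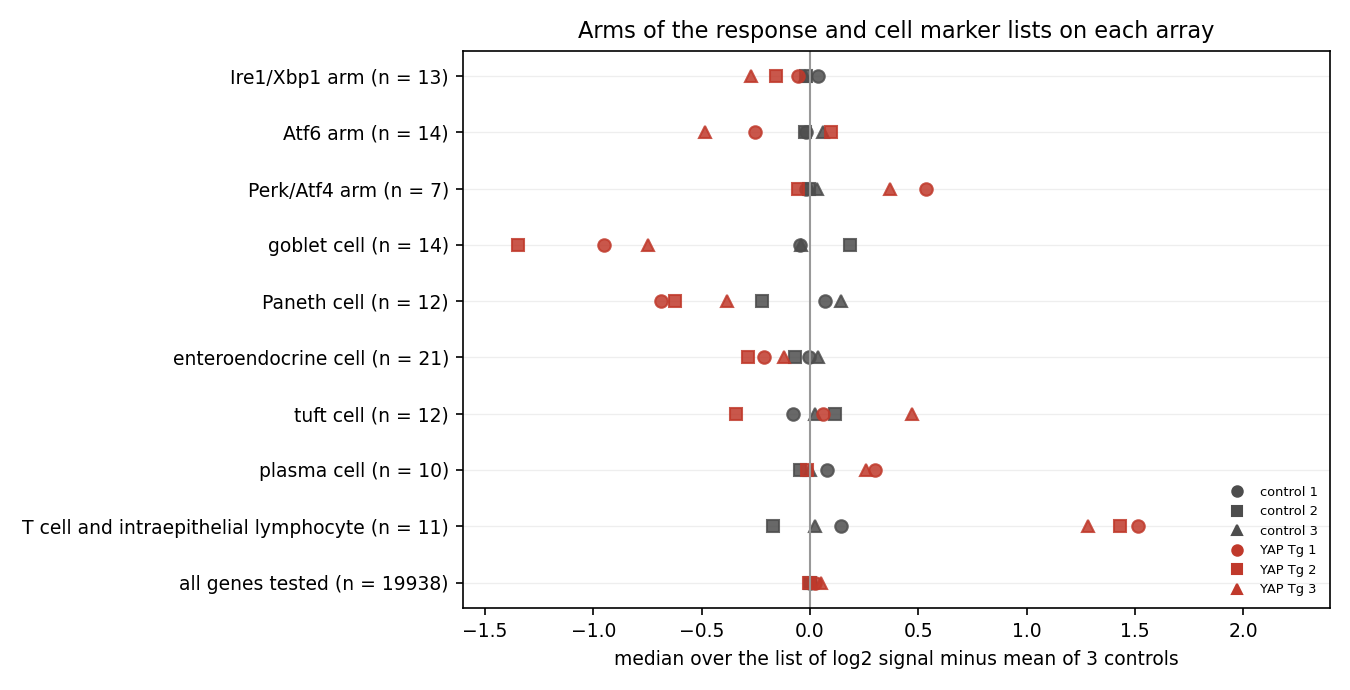
Median over each list of log2 signal minus the mean of the 3 controls, on each array (grey, control; red, YAP Tg; circle, square and triangle, replicates 1, 2 and 3). The goblet cell medians of YAP Tg 1, 2 and 3 are -0.95, -1.35 and -0.75, and the Atf6 arm medians are -0.26, 0.09 and -0.48.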

How the data were processed

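Total RNA of isolated crypts from 3 control and 3 YAP Tg mice was read on 1 array per mouse. The authors deposited log2 signals for 35556 probe sets, made with Affymetrix Expression Console 1.1 per the submitters' processing notes. The sources used here give neither the background correction and normalization nor the array's genome build. A normalization to a common level hides a change shared by all genes.

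Of these probe sets 21789 had 1 gene symbol, and 6617 without annotation, by their numbers, were taken to be array controls. The 19938 genes were tested two-sided with lmFit and eBayes of limma 3.58.1 in R 4.3.3, without covariates, at a Benjamini-Hochberg adjusted p of 0.05. The fit was tested on simulated data. The 34 genes, their arms, the pathway and marker lists and the tests were chosen with earlier results of these data known. Of each other list, up to 4 called genes with the smallest p are named, or up to 2 where none passed. Some abundant goblet products were added after their values were seen. Of 34 genes, 3 have several probe sets. Replicates are separate mice by the titles, and 3 per group limit the precision. Alternatives were leaving out each mouse, the replicate block, quantile normalization, median centring, filters on dim genes, a trended prior, array weights and the mean of probe sets.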

Additional observations from a re-analysis of the deposited data

How the results depend on the processing

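No called gene of the 34 changed direction under the alternatives run, and 8 uncalled genes changed sign in at least 1 of them (Asns, Creld2, Edem1, Eif2ak3, Hspa5, Manf, Sec61b and Sel1l). The number of calls moved. Against 5 calls (1 higher, 4 lower), array weights gave 13 (2 higher, 11 lower), with 7 lower in the Atf6 arm and 2 higher in the Perk/Atf4 arm, while 29.8% of all genes were called. As each mouse was left out, the total ran from 2 to 16, while 5.23% to 33.6% of all genes were called. Higher calls ran from 0 to 4 and lower calls from 2 to 12. In the Ire1/Xbp1 arm higher calls ran from 0 to 1 and lower calls from 1 to 4. Atf6 arm lower calls ran from 1 to 8 and Perk/Atf4 arm higher calls from 0 to 3. The Ire1/Xbp1 arm median was -0.25 without YAP Tg 1 and ran from -0.25 to -0.092 over the mice left out. The cause was not tested.

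Replicate numbers were not taken as pairs, since the correlations of same-numbered deviations were -0.13, 0.01 and 0.10. With the replicate block, 3 of the 34 genes were called, and 8.54% of all genes. Chac1 was higher and Ern2 and Herpud1 were lower, so 2 were lower, 1 of them in the Ire1/Xbp1 arm. The adjusted p of Xbp1 was 0.0719 and of Ssr4 0.100. Ssr4 was also lost after quantile normalization (0.0689) and with the trended prior (0.0746). Depth on arrays is signal over background, and 0 of the 34 genes had a mean below the array controls.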

Other observations

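The tRNA synthetases, enzymes that charge tRNA and many of them Atf4 targets, separated the transgenic mice. Of 11 measured, YAP Tg 2 was above the control mean in 11, YAP Tg 1 in 1 and YAP Tg 3 in 2. YAP Tg 1 and YAP Tg 3 were below the control range with YAP Tg 2 not below it in 8 of 11 (72.7%, against 10.3% of all genes). The upper quartile of all genes had the same arrangement, and its part in this result was not tested. Gars, which charges glycine tRNA, rose in all 3 mice, from 10.37, 10.35 and 10.41 in controls to 11.47, 11.35 and 11.38 (change 1.02 ± 0.07, SE, adjusted p = 0.000920 by limma).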
